A study of Mus musculus with 2 samples.

Results

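The Mir106b-25 cluster is a group of 3 miRNA genes, Mir106b, Mir93 and Mir25, that lie inside Mcm7, a gene of the DNA replication machinery, on mouse chromosome 5. The 3 members were chosen by position and symbol and not by a measured value, though with earlier results of these data known. All 3 were found among the 1973 miRNA genes of the count tables. The study sequenced small RNAs, with inserts shorter than 30 nt, from the facial prominences of healthy B6NCrl mouse embryos at 10.5 days. Its only group has 2 biological replicates, which were pooled from 69 embryos (replicate 1) and from 51 embryos (replicate 2). Each pool was of mixed sex, and no transgene or treatment is named. The comparisons are therefore between genes within the tissue and between the pools. Facial prominences hold neural crest mesenchyme under a covering epithelium, with vessels and blood. A level in such a pool is an average over all of these cells, and in bulk tissue fewer cells of a type cannot be told apart from less RNA per cell.

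As background, a miRNA gene is transcribed as part of a longer RNA, from which a hairpin is cut out and trimmed to short mature strands. A mature strand pairs with messenger RNAs mainly through its seed, bases 2 to 8, and lowers their translation and stability, so that miRNAs with the same seed share many targets. The Mir106b-25 cluster is a paralog of the Mir17-92 and Mir106a-363 clusters. In human cells E2F transcription factors raise the host gene and the cluster together, miR-106b and miR-93 repress the cell cycle inhibitor p21, and miR-25 represses the pro-apoptotic protein BIM. In mice the cluster can be deleted without loss of viability, but its deletion together with Mir17-92 is lethal to the embryo, and Mir17-92 is known to be needed for normal formation of the lip and palate.

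The hairpins are shown because each gene's count sums all reads along its hairpin. They are given 5′ to 3′ from RefSeq (GRCm38.p6), with both annotated mature arms in capitals, in the order in which they are transcribed.
Mir106b: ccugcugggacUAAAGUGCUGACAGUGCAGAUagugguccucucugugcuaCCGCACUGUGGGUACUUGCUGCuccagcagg
Mir93: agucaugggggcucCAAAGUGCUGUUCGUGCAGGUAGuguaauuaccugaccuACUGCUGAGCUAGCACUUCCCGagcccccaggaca
Mir25: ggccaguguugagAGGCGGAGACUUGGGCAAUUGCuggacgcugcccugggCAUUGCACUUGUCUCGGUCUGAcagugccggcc

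The arms known as the guide strands sit on different sides of these hairpins, the 5′ side in Mir106b and Mir93 and the 3′ side in Mir25. They are given here with the seed in capitals, beside the relatives with the same seed against which the levels are set. Mir106b, Mir93 and the 4 paralogs that follow them carry the seed AAAGUGC.
miR-106b-5p: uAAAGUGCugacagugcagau
miR-93-5p: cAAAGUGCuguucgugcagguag
miR-17-5p: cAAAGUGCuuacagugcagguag
miR-20a-5p: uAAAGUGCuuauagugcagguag
miR-106a-5p: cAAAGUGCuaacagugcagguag
miR-20b-5p: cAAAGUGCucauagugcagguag
Mir25 and its relatives carry the seed AUUGCAC. The mature miR-92a-3p is the product of both Mir92-1 and Mir92-2.
miR-25-3p: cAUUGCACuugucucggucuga
miR-92a-3p: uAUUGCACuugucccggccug
miR-92b-3p: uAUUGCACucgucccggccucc
miR-363-3p: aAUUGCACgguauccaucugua
miR-32-5p: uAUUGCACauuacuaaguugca
miR-367-3p: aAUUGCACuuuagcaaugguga

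Compared base by base from the 5′ end, miR-106b-5p was identical to miR-17-5p at 18 of 21 positions. The substitutions, with the miR-106b-5p base first, were U1C, G10U and A20G. It was also identical to miR-20a-5p and miR-106a-5p at 18 of 21 positions, but to miR-93-5p at only 16 of 21. miR-93-5p was identical to miR-17-5p at 19 of 23 positions and to miR-20b-5p at 20 of 23. miR-25-3p was identical to miR-92a-3p at 18 of 21 positions, with the substitutions C1U, U14C and U18C, and to miR-363-3p at 9 of 22. These differences lie outside the seed, by which the relatives were chosen. No member shared an identical stretch of 20 bases with another of the 1894 miRNA genes that had a hairpin sequence. The longest such stretch, in either orientation, was 14 bases for Mir106b, 13 for Mir93 and 12 for Mir25. Mir92-1, Mir92-2, Mir19b-1 and Mir19b-2 do share such a stretch with another gene, and their levels are uncertain because reads that map to several places are missing from the counts.

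The 3 hairpins lie in intron 13 of the 14 introns of the main Mcm7 transcript (ENSMUSG00000029730.16, chromosome 5, 138164583 to 138172422, minus strand, mm10). The intron is 748 nt long (138165162 to 138165909). Mir106b (ENSMUSG00000065514.1, 138165737 to 138165818) comes first in the direction of transcription. Mir93 (ENSMUSG00000065527.1, 138165523 to 138165610) follows after 126 nt. Mir25 (ENSMUSG00000065394.1, 138165321 to 138165404) follows after a further 118 nt, so that the cluster spans 498 nt. Of the 10 annotated Mcm7 transcripts, a retained-intron transcript covers Mir93 and Mir25 with an exon and leaves out Mir106b. The hairpins had a GC content of 57.3% (Mir106b), 55.7% (Mir93) and 63.1% (Mir25). Their predicted minimum free energies were -41.0, -46.3 and -35.9 kcal/mol in the same order. In these 3 hairpins the most stable predicted fold and the highest level belonged to Mir93, and the least stable fold and the lowest level to Mir25; with 3 points this is a description only.

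**Figure D1:**
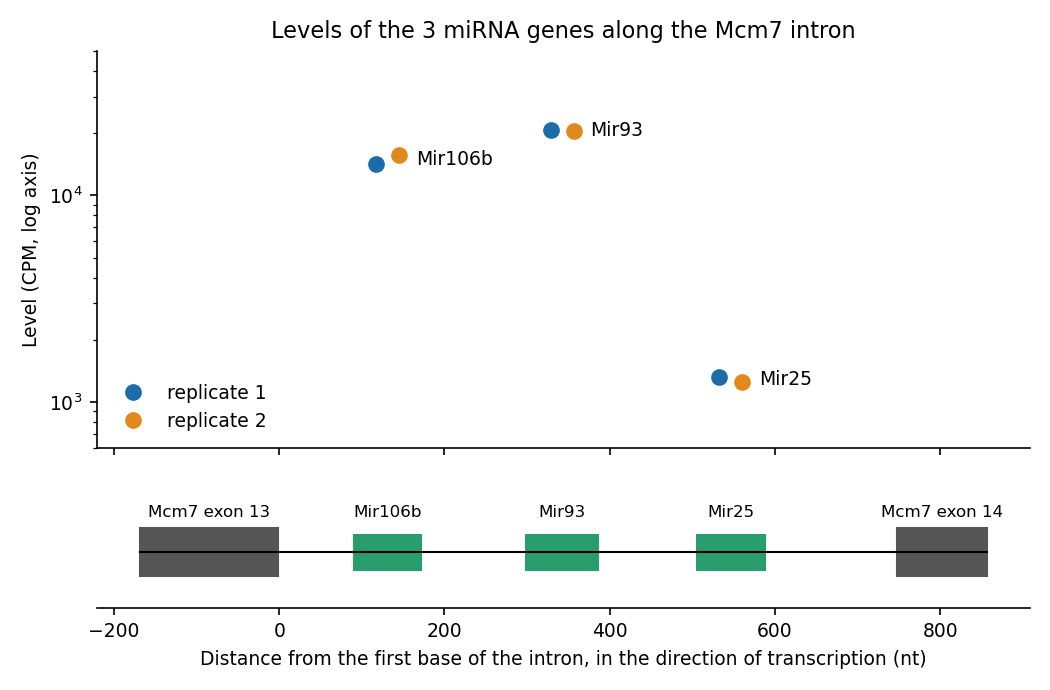
Level of each gene of the cluster in CPM (log axis) in both libraries, above a map of the intron to scale, with distance in nt from the intron's first base; the points of the 2 libraries are set slightly apart. Mir106b and Mir93 lie at 14192 CPM or above in both libraries, while Mir25, the last of the 3 hairpins, averages 1287 CPM.

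The libraries held 2853511 (replicate 1) and 3517226 (replicate 2) reads counted on the strand of a miRNA gene. Levels are given in CPM, a gene's counts scaled to the library total. They are not divided by length, because each read is a short fragment near the size of a mature strand. Both arms enter a gene's count, and because library preparation favours some sequences, a gap between genes is a gap in reads and need not be one in molecules. Intervals are exact Clopper-Pearson 95% intervals and cover counting error only, since reads copied by PCR are not independent molecules. The labelled tissue was checked on its markers. The sums of the 5 mesenchymal miRNAs were 24651 CPM (replicate 1) and 21977 CPM (replicate 2). Mir214 supplied most of them, with 15275 and 13802 CPM. The 7 epithelial miRNAs summed to 28691 and 23965 CPM. No gene of either list was at 0 in both libraries, which also held for the matched neural, erythroid, leukocyte and liver genes. Mir126a, the endothelial marker, had 31642 and 34369 CPM. The lists for neural, erythroid, leukocyte, striated muscle and liver cells had sums between 10.8 and 723 CPM in either library, and 2 of 4 matched muscle markers, Mir133a-1 and Mir133a-2, were at 0. Most of the neural sums came from Mir137, with 680 CPM (replicate 1) and 593 CPM (replicate 2). Mir124a-2, Mir124a-3, Mir1a-1 and Mir133a-2 share a 20-base stretch with another gene, and reads common to such copies were not counted. The low neural and muscle values therefore do not show that these miRNAs were absent.

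All 3 genes of the cluster were expressed in both pools, and Mir106b and Mir93 were among the most abundant miRNAs of the facial prominences. Mir93 had 59140 counts in replicate 1 and 71793 in replicate 2, or 20725 and 20412 CPM (20569 ± 222, SD, n = 2). Mir106b had 40497 and 54894 counts, or 14192 and 15607 CPM (14899.6 ± 1001). Mir25 had 3768 and 4409 counts, or 1320.5 and 1254 CPM (1287 ± 47.3). The 3 genes did not overlap in level in either library. By mean level they ranked 11 (Mir93), 14 (Mir106b) and 99 (Mir25) among 376 genes with at least 10 counts in each library. Together they took 3.62% of all counts in replicate 1 (interval 3.60% to 3.65%) and 3.73% in replicate 2 (3.71% to 3.75%). On the opposite strand Mir106b and Mir93 had 0 reads in both libraries, and Mir25 had 0 in replicate 1 and 1 in replicate 2.

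Set among all genes by level, the members had close neighbours. Mir93 lay just below Mir30e (24676 and 19789 CPM), whose range included the values of Mir93. It lay above Mir182 (18633 and 12039 CPM), a gene of the sensory Mir183 cluster, in both libraries and without overlap. Mir106b was flanked by Mir18 (14552 and 15598 CPM), a member of Mir17-92, and by Mir214 (15275 and 13802 CPM), a mesenchymal miRNA. Both neighbours overlapped it. Mir25 was flanked by Mir107 (1423 and 1162 CPM) and Mir219a-2 (339 and 2217 CPM), which also overlapped it. The gene whose pair of levels was nearest to that of Mir106b was Mir18, at a distance of 0.036 on the log2 scale over the 2 libraries, ahead of Mir214 (0.21) and Mir130b (0.27). The nearest to Mir25 was Mir434 (0.065), a gene of the imprinted Dlk1-Dio3 region, with 1264 and 1267 CPM. It was followed by Mir27b (0.13) and Mir107 (0.15), and both of these share a 20-base stretch with another gene. Mir93 had no gene that near, and its closest were Mir30e (0.26), Mir99b (0.42) and Mir322 (0.43). With 2 libraries this likeness is little more than a likeness of level.

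The order within the cluster was the same in both pools, with Mir93 highest and Mir25 lowest, which is not the order of transcription. Mir106b had 0.685 times the counts of Mir93 in replicate 1 (interval 0.676 to 0.693) and 0.765 times in replicate 2 (0.756 to 0.773). The intervals do not overlap, so the balance of these hairpins of the same intron differed between the pools beyond counting error, by 1.12-fold. Mir93 had 15.7 times the counts of Mir25 in replicate 1 (15.2 to 16.2) and 16.3 times in replicate 2 (15.8 to 16.8), and these intervals overlap. Mir106b had 10.7 times the counts of Mir25 in replicate 1 (10.4 to 11.1) and 12.5 times in replicate 2 (12.1 to 12.8), without overlap. Mir93 made up 57.2% and 54.8% of the cluster's counts, Mir106b 39.2% and 41.9%, and Mir25 3.64% and 3.36%. The gaps between members were larger than the differences between the libraries, but no exact test over 2 libraries can reach 0.05.

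Grouped by the seed of the guide strand, the cluster held a larger part of the counts of genes with the miR-17 seed than of those with the miR-25/92 seed. A gene's whole hairpin count, with both arms, was credited to that seed, since the arms were not counted apart. The shares are therefore of hairpin counts and not of reads that carry the seed. The 7 genes with the seed AAAGUGC held 19.0% ± 0.142 of all counts, of which Mir106b and Mir93 supplied 18.5% in replicate 1 (interval 18.4% to 18.6%) and 18.9% in replicate 2 (18.8% to 19.0%). Within this group Mir93 and Mir106b came next after Mir17 and Mir20a. Mir17, the founding member of the family, had 103291 CPM in replicate 1 and 99861 CPM in replicate 2, and Mir20a had 38641 and 40967 CPM. Mir106a (7666 and 8724 CPM) and Mir20b (4181 and 5132 CPM), from the X-linked cluster, were lower than both members in each library. Mir6383, the remaining gene with this seed, had 0 counts in both libraries, and a limit of 3 counts, used here in place of a Clopper-Pearson bound, allows a level of up to 1.05 CPM (replicate 1) or 0.853 CPM (replicate 2).

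Mir25 supplied 7.22% (interval 7.0% to 7.45%) of the hairpin counts of the genes with the seed AUUGCAC in replicate 1 and 5.53% (5.37% to 5.69%) in replicate 2. The 7 genes with this seed held 2.05% ± 0.311 of all counts. Mir92-1 led with 9216 and 10178 CPM. Mir363 had 3423 and 4581 CPM, and Mir92b had 3159.97 and 5162 CPM, and both exceeded Mir25 in each library. Mir92-2 (796 and 1104 CPM) and Mir32 (359.6 and 394 CPM) lay below Mir25 in both libraries. Mir367, a gene of the Mir302 cluster, had 3.50 and 5.97 CPM. Reads common to Mir92-1 and Mir92-2 are missing from this group's total, so the share of Mir25 may be too high. Without the genes that share a 20-base stretch, Mir25 made up 13.5% of the group on average. That setting drops Mir92-1, the highest gene of the group, and Mir92-2, so the share depends on which genes enter the group.

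**Figure D2:**
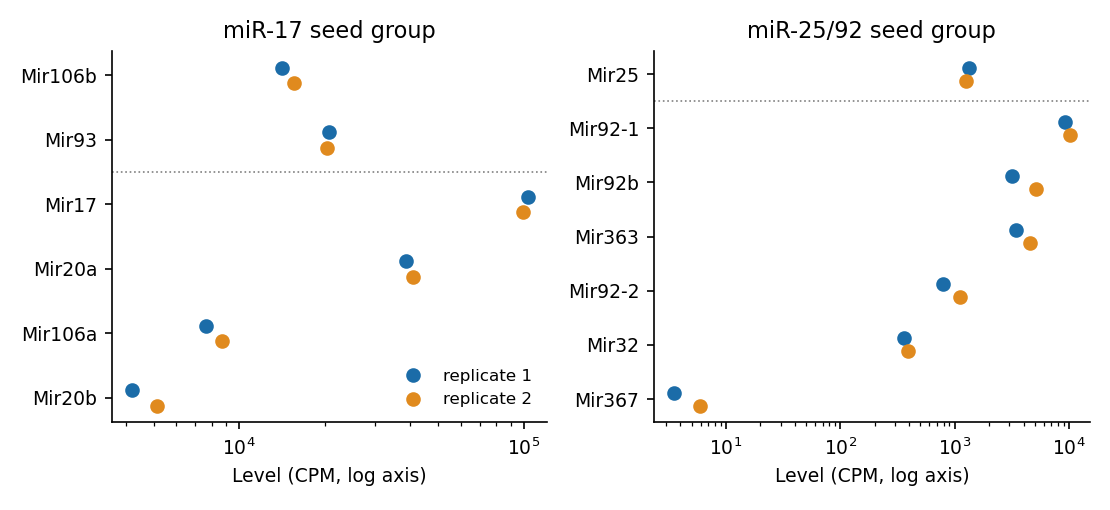
Levels in CPM (log axis) of the genes with the miR-17 seed (left) and the miR-25/92 seed (right), with a point for each library and the members of the Mir106b-25 cluster above the dotted line. Mir93 and Mir106b lie below Mir17 and Mir20a but above Mir106a and Mir20b, and Mir25 lies below Mir92-1, Mir92b and Mir363; Mir6383, with 0 counts, is not drawn.

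Among the paralogous clusters the one in Mcm7 ranked between the others. Its 3 genes held 36238 CPM in replicate 1 and 37273 CPM in replicate 2, against 166013 and 166911 CPM for the 6 genes of Mir17-92 and 16525 and 20130 CPM for the 6 genes of Mir106a-363. The Mcm7 cluster thus had 0.218 and 0.223 times the level of Mir17-92, and 2.19 and 1.85 times that of Mir106a-363. The levels of the clusters did not overlap. Reads that map to several places are missing from the sums of both paralogs, through Mir92-1, Mir92-2 and the Mir19b genes. No member of the Mcm7 cluster shares such a stretch, so its ratios to the paralogs may be too high by an unknown amount. The gene by gene comparison followed this order for some counterparts and not for others. Mir93 had 0.536 and 0.498 times the level of Mir20a, and 4.96 and 3.98 times that of Mir20b. Mir106b had 0.137 and 0.156 times the level of Mir17, and 1.85 and 1.79 times that of Mir106a. Mir25 had 0.143 and 0.123 times the level of Mir92-1. Set against its relatives of the X-linked cluster, it had 0.386 and 0.274 times the level of Mir363 but 1.66 and 1.14 times that of Mir92-2, a level that is uncertain because of the stretch shared with Mir92-1.

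The make-up of the clusters by seed differed in the same way in both pools. In Mir106b-25, 96.4% and 96.6% of the counts came from genes with the miR-17 seed, against 85.5% and 84.4% in Mir17-92 and 71.7% and 68.8% in Mir106a-363. Genes with the miR-25/92 seed, both arms counted, accounted for 3.64% and 3.36% of the counts in Mir106b-25, for 5.55% and 6.10% in Mir17-92 and for 25.5% and 28.2% in Mir106a-363. The share in Mir17-92 rests on Mir92-1, whose reads in common with Mir92-2 were not counted. Mir106b-25 holds no gene of the miR-18 or miR-19 type. In Mir17-92 the genes with the miR-18 seed took 8.77% and 9.34% of the counts and those with the miR-19 seed 0.189% and 0.184%, and in Mir106a-363 these shares were 2.62% and 2.77%, and 0.155% and 0.158%. The miR-19 share rests on Mir19b-2 alone in Mir106a-363, and on Mir19a and Mir19b-1 in Mir17-92. Both Mir19b genes share a 20-base stretch with another gene, so reads common to such copies were not counted and these shares are uncertain. Within the miR-17 type the balance also differed. The gene that comes first in transcription was the lower of the pair in Mcm7, with Mir106b at 0.685 and 0.765 times Mir93. It was the higher in the paralogs, with Mir17 at 2.67 and 2.44 times Mir20a and Mir106a at 1.83 and 1.70 times Mir20b.

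**Figure D3:**
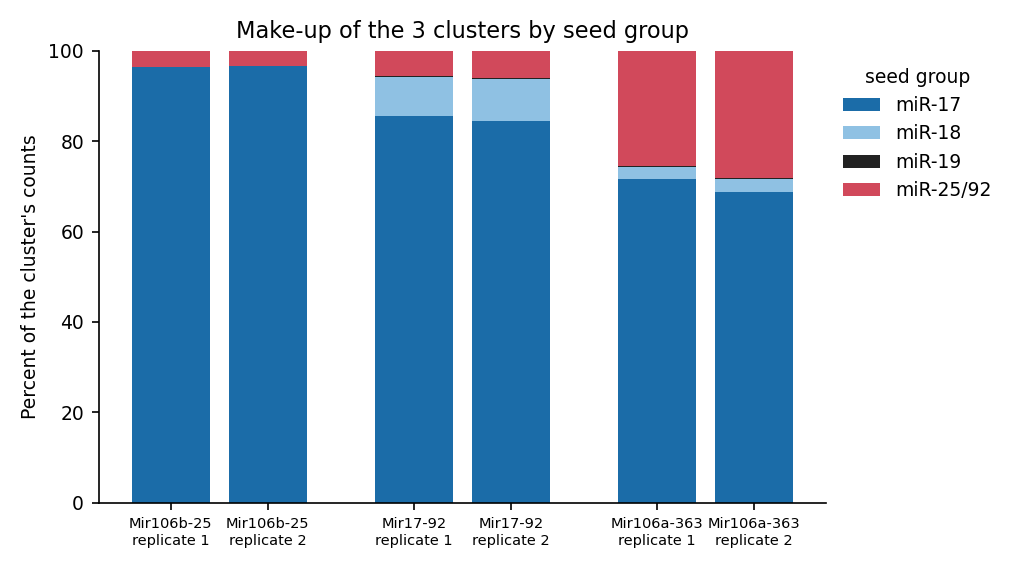
Percent of each cluster's counts that came from genes of each seed group, with a bar for each library. The bars of Mir106b-25 hold 96.4% and 96.6% of the miR-17 type and no miR-18 or miR-19 type, and the miR-25/92 part is largest in Mir106a-363. Reads that map to several places are missing for Mir92-1, Mir92-2, Mir19b-1 and Mir19b-2, so the miR-19 and miR-25/92 parts of the paralogs are uncertain.

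The pools differed little in this cluster. Ratios are replicate 1 over replicate 2, on log2(CPM + 0.5). The counts were compared by a two-sided exact binomial test, with Benjamini-Hochberg adjustment over 449 genes with at least 10 counts in all. This test compares these libraries beyond counting error, and not conditions. Mir106b was lower in replicate 1, with a log2 ratio of -0.14 (interval -0.16 to -0.12, exact binomial adjusted p = 8.23e-47). Mir93 was higher in replicate 1 by only 0.02 (0.01 to 0.04, adjusted p = 0.0175), and Mir25 by 0.08 (0.01 to 0.14, adjusted p = 0.0485). All 3 members passed, where 40.3% of the genes tested passed, 91 of them (20.3%) as higher and 90 as lower in replicate 1. Among the 104 tested genes that averaged at least 1000 CPM, whose depth is like that of the members, 91.3% passed, so the members' count is near the background. With edgeR's TMM scaling the calls of Mir93 (log2 ratio 0.00, adjusted p = 0.874) and Mir25 (0.06, adjusted p = 0.180) were lost.

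In size the differences were small beside those of the genes at 10 CPM or more. Of 320 genes that averaged at least 10 CPM, 16 had a log2 ratio closer to 0 than that of Mir93, 63 a closer one than Mir25 and 116 a closer one than Mir106b. The median distance from 0 over these genes was 0.18, and the SD of their log2 ratios was 0.39. Many of these genes had far fewer counts than the members, and counting noise widens the ratios of such genes. Sizes were not compared among genes of like depth alone. The interval of Mir106b overlapped neither that of Mir93 nor that of Mir25, while the intervals of Mir93 and Mir25 overlapped. Ratios within the cluster thus spanned 0.21 on the log2 scale over its 3 genes. The spans were 0.22 over the 6 genes of Mir17-92 and 0.29 over the 6 of Mir106a-363. A span tends to widen with more genes, and that of Mir17-92 ended at Mir19a, which did not pass the test.

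In the 12 genes of the paralogous clusters, 1 was higher and 8 were lower in replicate 1 past the same test, and 3 did not pass. The share that passed was 40.3% over all genes tested and 91.3% over those that averaged at least 1000 CPM, so passing alone does not set a gene apart. The median log2 ratio of the 12 genes was -0.16, against -0.01 over all genes tested. All 6 genes of the X-linked cluster had ratios below 0, and 5 passed, with Mir363 at -0.42 and Mir106a at -0.19 (exact binomial adjusted p = 4.9e-115 and 1.92e-47). Mir19b-2, at -0.31, did not pass. In Mir17-92, Mir17 was higher in replicate 1 at 0.05, and Mir20a (-0.08), Mir18 (-0.10) and Mir92-1 (-0.14) were lower. Mir19a (0.08) and Mir19b-1 (-0.09) did not pass. Of the other genes with a member's seed, Mir92b was lower in replicate 1 at -0.71 and passed, while Mir32 (-0.13) and Mir367 (-0.69) did not. The pools also differed in other tissue markers, with 6 of 7 epithelial genes higher in replicate 1 and none lower past the test, and 2 of 5 mesenchymal genes higher and none lower. Mir126a, the endothelial marker, was lower in replicate 1 at -0.12 and passed. Of the 3 erythroid genes 1 was higher and none lower, with sums of 419.8 and 205 CPM. Of the 4 neural genes tested 2 were higher and 2 lower, with list sums of 723 and 629.8 CPM. The 1 muscle gene tested was higher, with list sums of 26.3 and 10.8 CPM, and neither of the 2 leukocyte or the 2 liver genes passed. The part of these differences in the ratios of the miRNAs described here was not tested.

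**Figure D4:**
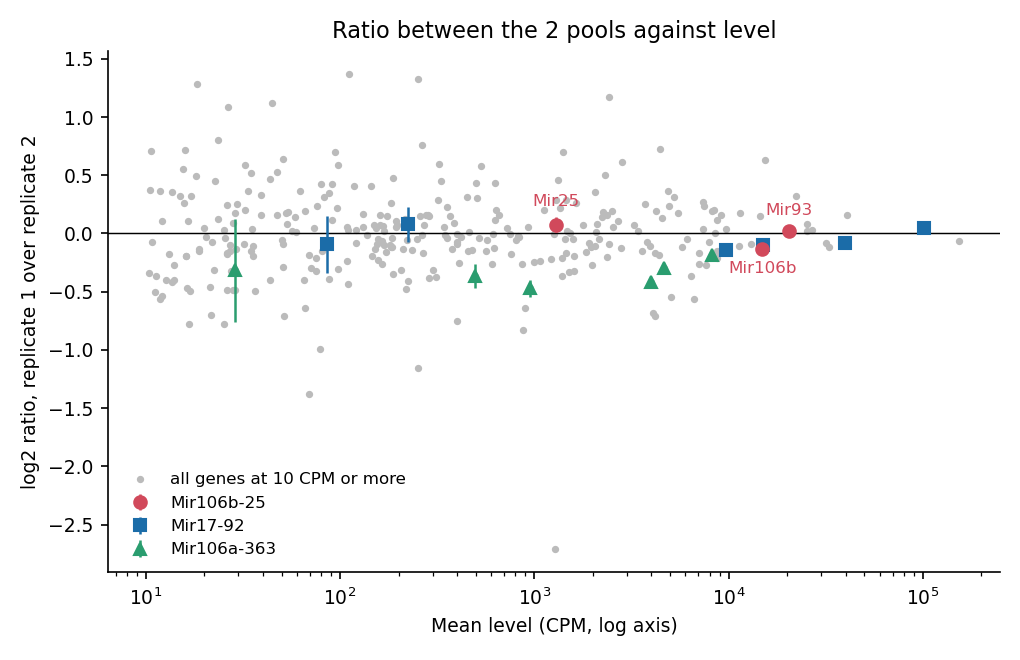
Log2 ratio of replicate 1 over replicate 2 against mean level (CPM, log axis) for the 320 genes that averaged at least 10 CPM, with exact 95% counting intervals on the genes of the 3 clusters. Mir93 and Mir25 lie just above 0 and Mir106b just below it, and all 6 genes of Mir106a-363 lie below 0.

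miRNAs known to restrain the cell cycle, the opposite of the role ascribed to Mir106b-25, were lower as a group in the reads counted. The 11 matched genes of the list (the Mir34 and Mir449 genes and the Mir15 and Mir16 genes with Mir195a) together had 11078 CPM (replicate 1) and 11621 CPM (replicate 2), against 36238 and 37273 CPM for the 3 genes in Mcm7. Mir497 had no matched gene. Mir15a was the highest, with 3789 and 4088 CPM, followed by Mir16-1 with 2394 and 2102 CPM. Mir34c, best known as a target gene of p53, had 1413 and 1456 CPM, just above Mir25 in both libraries. Mir16-1 and Mir16-2 share a 20-base stretch with another gene, and reads common to such copies are missing from the sum. The gap to the genes in Mcm7 may therefore be too large by an unknown amount. Between the pools 3 of the 11 genes were higher in replicate 1 and 3 lower past the test, 5 did not pass, and the median log2 ratio was -0.04. Over all genes tested 40.3% passed, and 91.3% of those that averaged at least 1000 CPM. Mir449a had the lowest ratio among those that passed, -0.83 (631 and 1122 CPM), and Mir16-2 the highest, 0.43 (573 and 425 CPM).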

How the data were processed

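Per the labels, small RNA libraries were made from total RNA of 2 pools of embryonic facial prominences. The authors deposited raw read counts per miRNA gene, 1 table per library, on mm10 with GENCODE M4, per the deposited text beside each table. The aligner is not given in the sources used here. Their tables have the layout of STAR's reads per gene, with 4 summary lines that name no gene and were left out. Of all reads, 27.6% (replicate 1) and 25.9% (replicate 2) mapped to several places and were assigned to no gene. Counts on the strand of the gene were used (97.6% of gene reads in each library).

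CPM was computed over all 1973 gene rows, with totals of 2853511 and 3517226 counts. At this depth a count of 0 allows up to 3 counts, or 1.05 and 0.853 CPM. Symbols and coordinates were taken from GENCODE M21, which is on the same build (GRCm38), by identifiers without version. Of these 1894 matched, and no unmatched one (79) had over 3 counts in all. Mature and hairpin sequences came from RefSeq, and all 3 members matched. RNAfold 2.7.2 gave the folding energies. The exact binomial test (scipy 1.17.1) ran over the whole table and was tested on simulated data with counting noise only. There 43 of 59 genes changed 2-fold and 8 of 338 unchanged genes passed. The real libraries differed by more than counting noise, so the simulation cannot show how the test behaves on them. The libraries were kept as 2 samples, since their counts differed beyond sampling noise (chi-square of 81.7 per degree of freedom). Scaling by edgeR 4.0.16 TMM factors and by DESeq2 1.42.0 size factors, other totals, minimum counts and pseudocounts, unstranded counts, and sums without genes that share a 20-base stretch were alternatives. The genes named are the members, the paralogs, the genes with a member's seed, the 3 genes nearest in level to each member and the fixed lists. Mir182 and Mir219a-2, as neighbours in level, and the genes picked out of the lists were named after their values were seen. The members and lists were chosen with earlier results of these data known.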

Additional observations from a re-analysis of the deposited data

How the results depend on the processing

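Both libraries are single pools of many embryos, so the SD over 2 libraries is itself uncertain, and reads that map to several places limit every comparison with Mir92-1, Mir92-2 and the Mir19b genes. The cluster took 1.52% of all reads when unmapped and unassigned reads were kept in the total, 3.59% of the unstranded counts and 4.94% without the 2 highest genes of the table, against 3.68% as reported; these totals are different by construction. Leaving out a library gave 3.62% to 3.73%. The log2 ratio of the cluster to Mir17-92 was -2.18, and -2.09 with only the members that share no 20-base stretch, because Mir92-1 and Mir19b-1 then leave the sum. With a library left out it lay between -2.20 and -2.16, and that to Mir106a-363 between 0.89 and 1.13. The share of Mir25 among genes with its seed was 6.38% on average and 5.53% to 7.22% with a library left out. It was 13.5% without genes sharing such a stretch, because Mir92-1 and Mir92-2 then leave the group. The share of Mir106b and Mir93 in theirs lay between 18.5% and 18.9%. The log2 ratio of Mir106b to Mir93 lay between -0.55 and -0.39, of Mir106b to Mir25 between 3.43 and 3.64, and of Mir93 to Mir25 between 3.97 and 4.03. Between the pools, Mir106b passed the exact binomial test in the 8 alternatives run, with log2 ratios of -0.16 to -0.10. Mir93 lost its call with TMM scaling and kept it in 7 others. Mir25 lost its call with TMM scaling and with no minimum count (adjusted p = 0.0787) and kept it in 6 others. These tallies include the pseudocounts of 0 and 5 CPM. A pseudocount does not enter the test, so the calls under these settings could not change. The number of genes that passed was 169 to 186 under 6 alternatives, against 181 of 449 (40.3%). The share moved with the number tested, to 170 of 741 genes (22.9%) with no minimum count and 176 of 334 (52.7%) with at least 50 counts. No paired analysis was possible because the series has a single group.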
